A study of Mus musculus with 2 samples.

Results

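Polycomb, trithorax-group (MLL), BAF and NuRD complexes change how histones are marked, bound and moved, and the levels of 54 genes that encode their subunits were described in embryonic mouse kidney. The genes were taken from a list of named subunits and matched to the gene tables by gene identifier. All 54 were found among 43346 genes. Total RNA longer than 200 nt was extracted with a mirVana kit from kidneys of B6NCrl mice at embryonic day 14.5, spike-in RNAs were used, and each library started from 10 ng. The 2 libraries were biological replicates 1 and 2 of 1 group for which no treatment or genetic change is stated, each from the 2 kidneys of a pup, collected 2 days apart. The labels also give the sex as mixed, which a single pup does not provide, and this was not resolved. With 1 group there was no contrast to test, so levels are given for both libraries, replicate 1 first, in TPM (transcript abundance corrected for length, with the same total in each library).

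As background, PRC2 methylates a lysine of the histone H3 tail through Ezh1 or Ezh2, and PRC1 ubiquitinates a core histone through Ring1 or Rnf2 and compacts chromatin, and both keep developmental genes silent. MLL complexes methylate another lysine of H3 at active promoters and enhancers, BAF complexes use ATP to slide or evict nucleosomes, and NuRD joins a remodelling ATPase to histone deacetylases. In the developing kidney, nephron progenitors are known to need PRC2, the NuRD ATPase Chd4 and the deacetylases Hdac1 and Hdac2, and the MLL-associated protein Paxip1 is known to link the kidney regulator Pax2 to histone methylation.

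The tables held 29718428 and 29204212 expected counts, of which 28429080 and 27758872 fell on genes. The tissue label was checked against 10 markers of kidney compartments, and 10 of 10 reached 1 TPM in both libraries, from 2.61 TPM for the podocyte gene Nphs1 to 242 TPM for the stromal gene Col1a1. Of 12 markers of neurons and Schwann cells 4 did so, with summed levels of 34.2 and 34.3 TPM, and Sox10 and Elavl3 were at 0.12 TPM or less in both. Of 6 skeletal and cardiac muscle markers 3 did so, with sums of 21.1 and 20.99 TPM. The sums of the neuronal and muscle markers differed little between libraries. The sum of the 10 kidney markers was lower in replicate 2, at 815 and 661 TPM, but not in every compartment. Sums were 311 and 204 TPM for the 2 stromal markers, 143 and 99.1 TPM for the 2 early nephron markers and 34.9 and 28.5 TPM for podocytes. For the ureteric tree they were 175 and 173 TPM, and for nephron progenitors 151 and 157 TPM. Of the stromal markers, Col1a1 was at 299 and 185 TPM and Foxd1 at 12.4 and 18.3 TPM. Of the ureteric markers, Calb1 was at 164 and 168 TPM and Ret at 11.1 and 5.07 TPM. Of the progenitor markers, Cited1 was at 131 and 141 TPM and Six2 at 19.3 and 15.9 TPM. The sums thus followed the higher marker of each pair, and the lower one could go the other way. The part of these differences in the levels below was not tested.

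The subunit genes were broadly expressed. A total of 53 of 54 reached 1 TPM in both libraries, against 59.0% of 21474 protein-coding genes, and the exception was Actl6b, a neuronal BAF subunit. The median of their mean levels was 31.9 TPM, against 18.3 TPM over the 12669 protein-coding genes detected. Of the 54, 39 were at or above the 50th percentile of detected protein-coding genes, 17 were at or above the 75th and 7 were below the 25th. By mean level, 7 genes were at 100 TPM or more, 22 between 30 and 100 TPM, 18 between 10 and 30 TPM, 6 between 1 and 10 TPM and 1 below 1 TPM. Together the 54 took 183816 and 170539 counts, or 0.647% and 0.614% of counts on genes. In whole tissue, fewer cells that express a gene and less RNA of it per cell cannot be told apart.

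**Figure D1:**
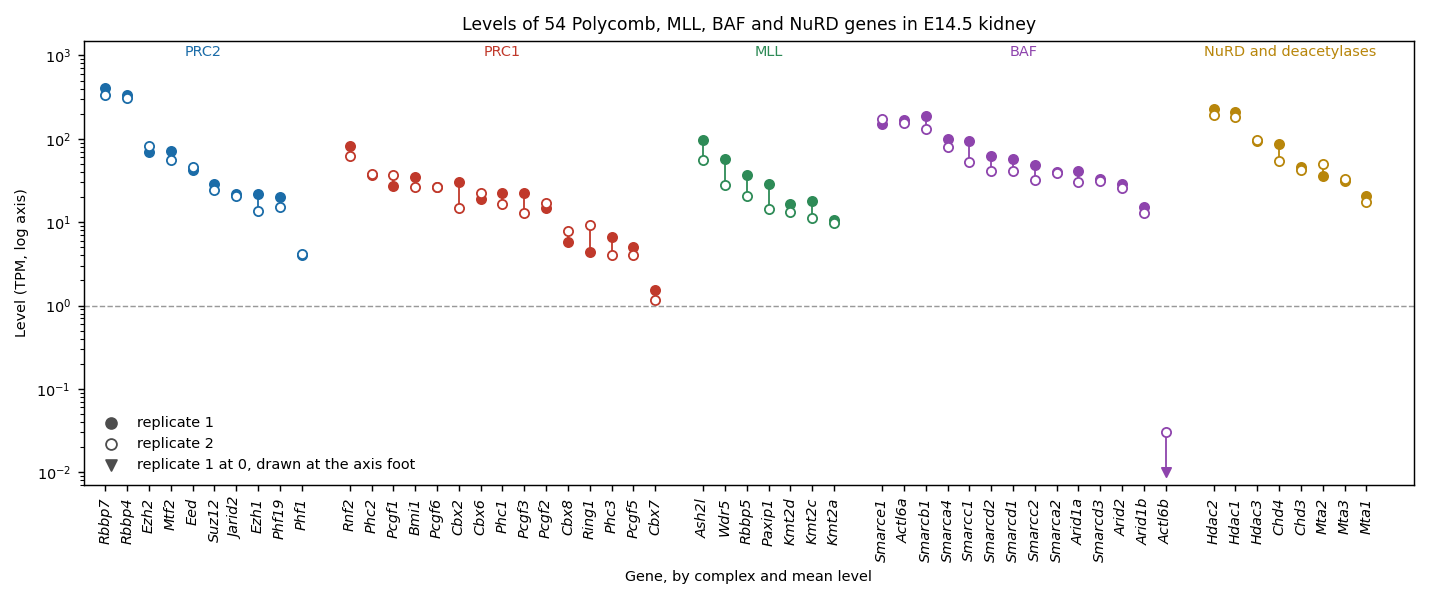
Level of each of the 54 genes in TPM on a log axis, grouped by complex and ordered by mean, with replicate 1 as filled and replicate 2 as open circles joined by a line and a dashed line at 1 TPM. Rbbp7 stood highest at 411 and 340 TPM, and Actl6b was alone below the dashed line, with replicate 1 at 0 drawn as a triangle at the foot.

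The plot of levels by gene shows that genes sharing a complex did not share a level. Medians of the mean levels were 35.5 TPM for the 10 PRC2 genes, 19.7 TPM for the 15 PRC1 genes, 21.4 TPM for the 7 MLL genes, 44.9 TPM for the 14 BAF genes and 57.04 TPM for the 8 NuRD and deacetylase genes. PRC2 spanned 4.13 to 375 TPM and PRC1 spanned 1.35 to 71.4 TPM. The 7 MLL genes spanned the narrowest range, 10.2 to 76.3 TPM.

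Within PRC2, the methyltransferase was mostly Ezh2. Ezh2, the main enzyme of dividing cells, stood at 68.6 and 82.1 TPM. Ezh1, its paralog that prevails in many non-dividing tissues, stood at 21.6 and 13.7 TPM. Ezh2 exceeded Ezh1 3.17-fold in replicate 1 and 5.99-fold in replicate 2, so the order was the same while the ratio was not. Ezh1 (ENSMUSG00000006920.10) lies on mm10 chromosome 11, 101191115 to 101226463, minus strand, and Ezh2 (ENSMUSG00000029687.12) on chromosome 6, 47530139 to 47595341, minus strand. The promoter windows of the pair, 250 bases before to 50 bases after the RefSeq start on GRCm38.p6, are shown because their levels differed in both libraries. They lie at chr11:101226414-101226713, minus strand, and chr6:47594981-47595280, minus strand, and read 5′ to 3′ on the gene's strand.
Ezh1: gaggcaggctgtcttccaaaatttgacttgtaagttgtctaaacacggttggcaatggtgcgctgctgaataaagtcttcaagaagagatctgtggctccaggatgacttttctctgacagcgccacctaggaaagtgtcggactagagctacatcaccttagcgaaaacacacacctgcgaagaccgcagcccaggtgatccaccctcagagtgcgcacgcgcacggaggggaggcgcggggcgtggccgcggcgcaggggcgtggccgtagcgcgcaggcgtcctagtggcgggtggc
Ezh2: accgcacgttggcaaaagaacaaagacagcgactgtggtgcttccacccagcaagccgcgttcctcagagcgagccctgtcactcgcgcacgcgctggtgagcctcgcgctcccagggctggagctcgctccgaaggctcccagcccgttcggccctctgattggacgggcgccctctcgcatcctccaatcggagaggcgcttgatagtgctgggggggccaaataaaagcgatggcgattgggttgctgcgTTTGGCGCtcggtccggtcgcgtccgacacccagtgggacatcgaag
Capitals mark TTTGGCGC, an E2F-type motif, the factors of which act in the cell cycle. It was found once in the window of Ezh2, from base 254 on the gene's strand, and neither it nor TTTCCCGC was found on either strand in that of Ezh1. A match is a run of letters and not a shown binding site. The Ezh1 window held 23 CpG dinucleotides and that of Ezh2 held 31.

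Of the other core PRC2 subunits, Eed and Suz12 were below Ezh2 and the RBBP proteins above it. Eed, which binds the methyl mark and stimulates the enzyme, stood at 42.6 and 46.3 TPM. Suz12, the scaffold, stood at 28.7 and 24.3 TPM. Eed exceeded Suz12 1.49-fold and 1.90-fold, and the sum of Ezh1 and Ezh2 exceeded Suz12 3.14-fold and 3.94-fold. The histone-binding WD40 proteins Rbbp7 and Rbbp4, which PRC2 shares with NuRD and other complexes, were the highest of all 54 genes with all transcripts summed. Rbbp7 was at 411 and 340 TPM and Rbbp4 at 338 and 308 TPM. Their sum was 8.30 and 6.76 times that of Ezh1 and Ezh2, and 1.72 and 1.71 times that of Hdac1 and Hdac2, 2 of their NuRD partners. These ratios use all annotated transcripts. On coding transcripts alone Rbbp4 summed to 105 and 96.0 TPM, below Hdac2, Hdac1, Smarcb1 and Actl6a in both libraries. On that basis Rbbp4 and Rbbp7 together summed to 515 and 436 TPM, and Ezh1 and Ezh2 to 71.5 and 81.85 TPM.

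Accessory subunits divide PRC2 into alternative forms. Among the Polycomb-like proteins, which bring PRC2 to CpG-rich DNA, Mtf2 stood at 70.6 and 56.2 TPM and Phf19 at 20.1 and 15.2 TPM. Phf1, the third of them, stood at 4.09 and 4.17 TPM, so Mtf2 exceeded it 17.3-fold and 13.5-fold. Mtf2 held 74.5% and 74.4% of the summed level of these 3 genes, shares that were nearly equal although the sum was 94.8 TPM in replicate 1 and 75.5 TPM in replicate 2. On coding transcripts alone its shares were 69.0% and 71.8%. The mean log2 ratio of Mtf2 to Phf1 was 3.93, against 3.42 on coding transcripts and 3.02 with counts per length of the longest coding transcript. That of Mtf2 to Phf19 was 1.85, against 1.62 and 1.05. Jarid2, which marks the other form of PRC2, stood at 22.0 and 20.5 TPM.

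In PRC1, the ubiquitin ligase was mostly Rnf2. Rnf2 (RING1B) stood at 81.2 and 61.7 TPM, and its paralog Ring1 at 4.35 and 9.23 TPM. Rnf2 exceeded Ring1 18.7-fold in replicate 1 and 6.68-fold in replicate 2. Ring1 rested on 171 and 376 counts, and of the 53 genes detected it was the one furthest above its replicate 1 level in replicate 2. Rnf2 held 94.9% and 87.0% of the pair's level.

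The 6 PCGF genes, of which 1 product pairs with each ligase and sets the type of PRC1, were closer to each other. Bmi1, of canonical PRC1, stood at 34.8 and 26.3 TPM, and Pcgf2 (also called Mel18), its close paralog, at 15.0 and 17.0 TPM. Among genes of variant PRC1, Pcgf1 stood at 27.2 and 36.7 TPM, Pcgf6 at 26.1 and 26.3 TPM and Pcgf3 at 22.2 and 12.9 TPM. Pcgf5 was the lowest at 4.98 and 4.04 TPM, below each of the other 5 in both libraries. Bmi1 led in replicate 1 and Pcgf1 in replicate 2, so no leading PCGF gene could be named. The 4 variant genes summed to 80.4 and 79.9 TPM and the 2 canonical genes to 49.7 and 43.3 TPM, a ratio of 1.62 and 1.85.

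Canonical PRC1 reads the PRC2 mark through a CBX protein. Cbx2 stood at 30.03 and 14.9 TPM and Cbx6 at 19.1 and 22.5 TPM. On TPM their order turned between libraries, with Cbx2 over Cbx6 at 1.57 in replicate 1 and 0.663 in replicate 2. Cbx8 stood at 5.86 and 7.87 TPM. Cbx7, a prevailing CBX gene in embryonic stem cells, was at 1.54 and 1.16 TPM on 105 and 86 counts, and held 2.73% and 2.50% of the summed level of the 4 CBX genes. Cbx7 was the lowest detected gene of the 54.

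The polyhomeotic proteins, which polymerise through a SAM domain, kept 1 order in both libraries. Phc2 stood at 36.6 and 37.4 TPM, Phc1 at 22.7 and 16.7 TPM and Phc3 at 6.71 and 4.07 TPM. Phc2 held 55.4% and 64.3% of their sum.

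In the MLL group, the large methyltransferases were low beside their shared core. Kmt2d and Kmt2c, which act mainly at enhancers, stood at 16.6 and 13.1 TPM and at 18.2 and 11.2 TPM. Kmt2a (MLL1), which acts at promoters and maintains Hox gene expression, stood at 10.6 and 9.68 TPM. The core subunits that activate these enzymes were higher, with Ash2l at 96.7 and 56.0 TPM, Wdr5 at 57.8 and 27.8 TPM and Rbbp5 at 37.0 and 20.8 TPM. On coding transcripts alone Rbbp5 summed to 20.2 and 8.54 TPM, which in replicate 2 was below all 3 methyltransferase genes. Paxip1 (PTIP), a partner of Kmt2c and Kmt2d, stood at 28.6 and 14.3 TPM. Ash2l was 2.13 and 1.65 times the sum of the 3 methyltransferase genes, and Wdr5 was 1.27 and 0.818 times that sum, so Wdr5 was above it in replicate 1 and below it in replicate 2. The core also serves SET1 enzymes, and these ratios of RNA say nothing of protein numbers.

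Subunits of the progenitor and general forms of the BAF complex were detected. Of neuronal BAF, Dpf1 at 4.04 and 3.22 TPM and Ss18l1 at 5.45 and 2.59 TPM, described below, were also detected, while Actl6b was not. Dpf3, a paralog of Dpf1, was higher at 12.2 and 10.8 TPM. Smarca4 (BRG1), the ATPase of dividing progenitors, stood at 98.6 and 79.0 TPM, and the alternative ATPase Smarca2 (BRM) at 39.8 and 38.7 TPM. Smarca4 exceeded Smarca2 2.48-fold and 2.04-fold, a mean log2 ratio of 1.17, which was 2.06 on coding transcripts alone and 2.50 with counts per length of the longest coding transcript. The core subunit Smarcb1 stood at 188 and 132 TPM, and Smarce1, which has a DNA-binding HMG box, at 149 and 171 TPM. Both were above either ATPase in both libraries, but on coding transcripts alone Smarce1 summed to 75.4 and 98.2 TPM and was below Smarca4 in replicate 1.

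Scaffold and variable BAF subunits came from several paralogs at once. Smarcc1 stood at 93.0 and 53.0 TPM and Smarcc2 at 48.9 and 32.4 TPM, and these scaffold genes kept their order at 1.90-fold and 1.63-fold. The bridging subunits Smarcd2 and Smarcd1 stood at 62.2 and 41.6 TPM and at 57.1 and 41.2 TPM, a difference within the spread between libraries. Smarcd3, which takes part in heart and muscle development, stood at 32.8 and 31.2 TPM. Arid1a, a large subunit of canonical BAF, stood at 40.7 and 30.4 TPM and its paralog Arid1b at 15.0 and 12.9 TPM. Arid2, which takes that place in the PBAF form, stood at 28.5 and 25.4 TPM.

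The actin-related subunit was Actl6a alone within the limit of detection. Actl6a (ENSMUSG00000027671.10, mm10 chromosome 3, 32706298 to 32726973, plus strand), found in progenitor BAF, stood at 167 and 153 TPM on the TPM scale. Actl6b (ENSMUSG00000029712.10, chromosome 5, 137553517 to 137569582, plus strand), which replaces it in neurons, had 0 counts in replicate 1 and 1 count in replicate 2. A count of 0 allows up to 3 counts, or 0.103 TPM, in replicate 1. The 1 count of replicate 2 was given as 0.03 TPM and was assigned to a transcript annotated for nonsense-mediated decay. Promoter windows of the pair are shown because the 2 genes were the most unlike paralogs in level. They lie at chr3:32708296-32708595, plus strand, and chr5:137553296-137553595, plus strand, on GRCm38.p6 from RefSeq, and read 5′ to 3′.
Actl6a: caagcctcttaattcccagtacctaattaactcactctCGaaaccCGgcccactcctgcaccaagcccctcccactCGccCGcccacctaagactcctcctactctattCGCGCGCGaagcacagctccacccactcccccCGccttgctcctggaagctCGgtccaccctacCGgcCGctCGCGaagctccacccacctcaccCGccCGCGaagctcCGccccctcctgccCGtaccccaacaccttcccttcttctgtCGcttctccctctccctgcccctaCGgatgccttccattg
Actl6b: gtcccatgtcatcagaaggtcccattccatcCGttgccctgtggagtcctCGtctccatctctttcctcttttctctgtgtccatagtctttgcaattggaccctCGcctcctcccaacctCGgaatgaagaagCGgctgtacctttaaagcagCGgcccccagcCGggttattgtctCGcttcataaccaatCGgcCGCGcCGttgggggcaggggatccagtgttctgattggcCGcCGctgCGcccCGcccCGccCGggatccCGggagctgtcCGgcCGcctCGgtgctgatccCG
Capitals mark CpG dinucleotides, of which the window of Actl6a held 21 and that of Actl6b held 23. The 2 windows thus held similar numbers of CpG, and 1 pair chosen for its difference in level cannot show whether CpG density goes with expression. Methylation of these sites was not measured.

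In NuRD, the ATPase genes Chd4 and Chd3 stood at 85.6 and 54.6 TPM and at 46.3 and 41.7 TPM. Chd4 was higher in both libraries, by 1.85-fold and 1.31-fold, but the mean log2 ratio of 0.64 was less than 2 SD (SD 0.35, n = 2) from 0, so the pair was not ordered. With protein-coding transcripts alone the ratio was ordered, at a log2 of 1.90 and 1.77. The pair had the longest shared coding run outside repeats among the paralogs, which is shown because it bears on how well reads can be told apart. It starts at coding base 3622 of Chd3-202 and at coding base 3436 of Chd4-202 in GENCODE M21.
Chd3 and Chd4: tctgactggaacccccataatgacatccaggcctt
No base is in capitals because the 35 nt are identical in both. The run is shorter than the 100 nt used as the window of sequence comparison, and no run of that length was shared by any pair of the 54 genes.

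The MTA scaffold of NuRD came from 3 genes. Mta2 stood at 35.7 and 50.3 TPM, Mta3 at 30.9 and 32.7 TPM and Mta1 at 20.7 and 17.3 TPM. Mta1 was the lowest in both libraries, and Mta2 over Mta3, at 1.16 and 1.54, was not ordered. Mta2 was 1 of 14 genes that were higher in replicate 2.

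The class I deacetylases were among the highest genes. Hdac2 stood at 227 and 195 TPM and Hdac1 at 209 and 184 TPM. Their ratio of 1.09 and 1.06 met the rule for an order, but it turned to a log2 of -0.56 when counts were divided by the length of the longest coding transcript, so the order of this pair depended on the length used. Hdac3, which acts in corepressor complexes outside NuRD, stood at 93.6 and 95.6 TPM. Hdac1 and Hdac2 summed to 3.30 and 3.94 times Chd3 and Chd4 and to 5.00 and 3.78 times the MTA genes.

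Paralogs of the same family were compared in 48 pairs from 15 families. Not every pair takes the same place in a complex, since Hdac3, for example, acts outside NuRD. A pair was called ordered when both libraries gave the same order and the mean log2 ratio was more than 2 SD from 0, and 34 of 48 pairs were ordered. Of the 14 others, 5 turned their order between libraries, namely Pcgf1 and Bmi1, Pcgf3 and Pcgf2, Bmi1 and Pcgf6, Cbx2 and Cbx6, and Kmt2d and Kmt2c. With counts per length of the longest coding transcript the last 2 pairs did not turn, while the others named did. Log2 ratios with that length were 1.18 and 0.017 for Cbx2 over Cbx6 and 0.61 and 1.02 for Kmt2d over Kmt2c. The widest ratios of ordered pairs were those of Cbx2 to Cbx7 at 19.5-fold and 12.8-fold, Cbx6 to Cbx7 at 12.4-fold and 19.4-fold, and Mtf2 to Phf1, given above. With posterior mean TPM the mean log2 ratios to Cbx7 dropped from 3.98 to 2.79 for Cbx2 and from 3.95 to 2.82 for Cbx6, and Mtf2 to Phf1, at 3.93, was the widest. With 2 libraries the SD of each ratio is itself poorly known, and the rule is a description of these libraries. Actl6a and Actl6b, the last family, were not given a ratio because Actl6b had 0 counts in replicate 1 and 1 in replicate 2.

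**Figure D2:**
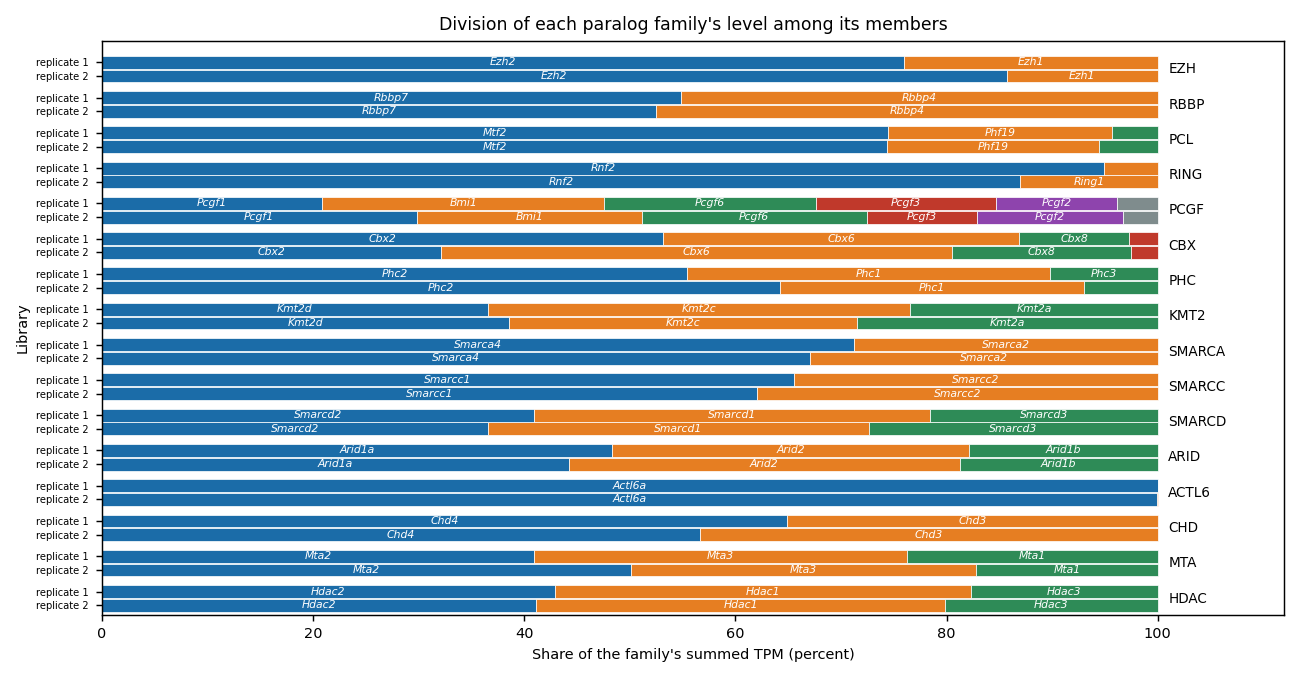
Percent of each family's summed TPM held by each paralog, with 1 bar for each library and the family named at the right. Segments under 7% are not labelled and belong to Phf1, Ring1 in replicate 1, Pcgf5, Cbx7, Phc3 in replicate 2 and Actl6b. Ezh2, Rnf2, Mtf2, Smarca4 and Actl6a hold most of their families in both libraries. On this TPM scale the CBX, PCGF and KMT2 families change their leading gene.

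The plot of family shares sets families with 1 dominant gene beside families that are divided. Ezh2 held 76.0% and 85.7% of the EZH level, Smarca4 71.3% and 67.1% of the ATPase level, and Smarcc1 65.5% and 62.0% of its pair. The 3 KMT2 genes were divided, with Kmt2d at 36.6% and 38.6%, Kmt2c at 40.0% and 32.95% and Kmt2a at 23.4% and 28.5%. Rbbp7 held 54.8% and 52.5% of the RBBP level, and Hdac2 held 42.9% and 41.1% of the HDAC level. When protein-coding transcripts alone were summed, the leading gene by mean share was the same in 15 of 16 families, and in the PCGF family Bmi1 took the place of Pcgf1.

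Between the libraries, most of the 54 genes were lower in replicate 2 on the TPM scale, as most genes were. Of 53 genes at a mean of 1 TPM or more 39 were lower and 14 were higher, against 73.0% lower of 15075 genes. The median log2 ratio of replicate 2 over replicate 1, with 1 TPM added to each value, was -0.23 for the 53 and -0.26 for all genes. The sign of these medians depended on the scaling. With TMM-scaled counts the medians were 0.01 for the 53 genes and 0.00039 for all genes, and 25 of the 53 were lower and 28 higher. With FPKM and with median-of-ratios scaling the split was 28 lower and 25 higher.

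The 2-fold rule was applied with 1 TPM added to each value, in genes with 5 TPM or more in the higher library. It called 1 of 50 genes that could be called. This was Wdr5, lower in replicate 2 at a log2 ratio of -1.03, and none was called higher. Over 11480 genes the rule called 4.56% lower, 1.00% higher and 5.56% in either direction. Nearest to this limit without passing it were Cbx2 at -0.97, Paxip1 at -0.95 and Ring1 at 0.94. Without the added 1 TPM, Cbx2 and Paxip1 were 2.02-fold and 2.00-fold lower in replicate 2, and Ring1 was 2.12-fold higher. The share of all genes that differ 2-fold without it was not counted. In shares of counts on genes, Wdr5 had a log2 ratio of -0.78 (exact conditional binomial 95% interval -0.87 to -0.70) and Ring1 one of 1.17 (interval 0.91 to 1.44). These intervals cover counting error only, and with 1 library on each side they compare libraries and not conditions. Wdr5 did not pass the limit on the FPKM, TMM or median-of-ratios scales, on each of which Ring1 did.

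Of the 5 groups of members, the MLL genes had the lowest median in this comparison. Their median log2 ratio was -0.78, against -0.18 for PRC2, -0.23 for PRC1, -0.32 for BAF and -0.16 for NuRD and deacetylases. Of the MLL genes 7 of 7 were lower in replicate 2, as were 73.0% of 15075 genes. The PRC2 and NuRD medians changed sign with FPKM (0.043 and 0.064), TMM (0.18 and 0.12) and median-of-ratios scaling (0.15 and 0.098). Ash2l was at -0.78, Rbbp5 at -0.80, Paxip1 at -0.95 and Wdr5 at -1.03. Kmt2a was at -0.12, Kmt2d at -0.32 and Kmt2c at -0.65, so the 3 longest genes differed less than the 4 others. The MLL median was -0.54 with FPKM, -0.49 with TMM and -0.51 with median-of-ratios scaling, while Kmt2a turned above 0 with FPKM and Kmt2a and Kmt2d did so with TMM. The 13 other MLL and SET1 genes described below had a median of -0.03 on TPM.

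Length moved with the difference. Over all genes the median log2 ratio was 0.13 for effective lengths under 1000 nt, -0.12 from 1000 to 2000 nt, -0.41 from 2000 to 4000 nt and -0.54 at 4000 nt and over. Members followed the same steps, with 0.42 for Pcgf1 alone in the shortest class and medians of -0.03 over 16 genes, -0.35 over 22 genes and -0.49 over 14 genes in the others. All 14 genes of the longest class were lower in replicate 2, as were 17 of 22 and 8 of 16 in the classes below it. Over 15075 genes of any length 73.0% were lower. The share of all genes lower within each class was not counted, so these counts mark nothing as particular to the members. The share of all genes called 2-fold lower was 4.42% in the class of Wdr5 and 12.0% in the longest. Its part in the differences of single genes was not tested.

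**Figure D3:**
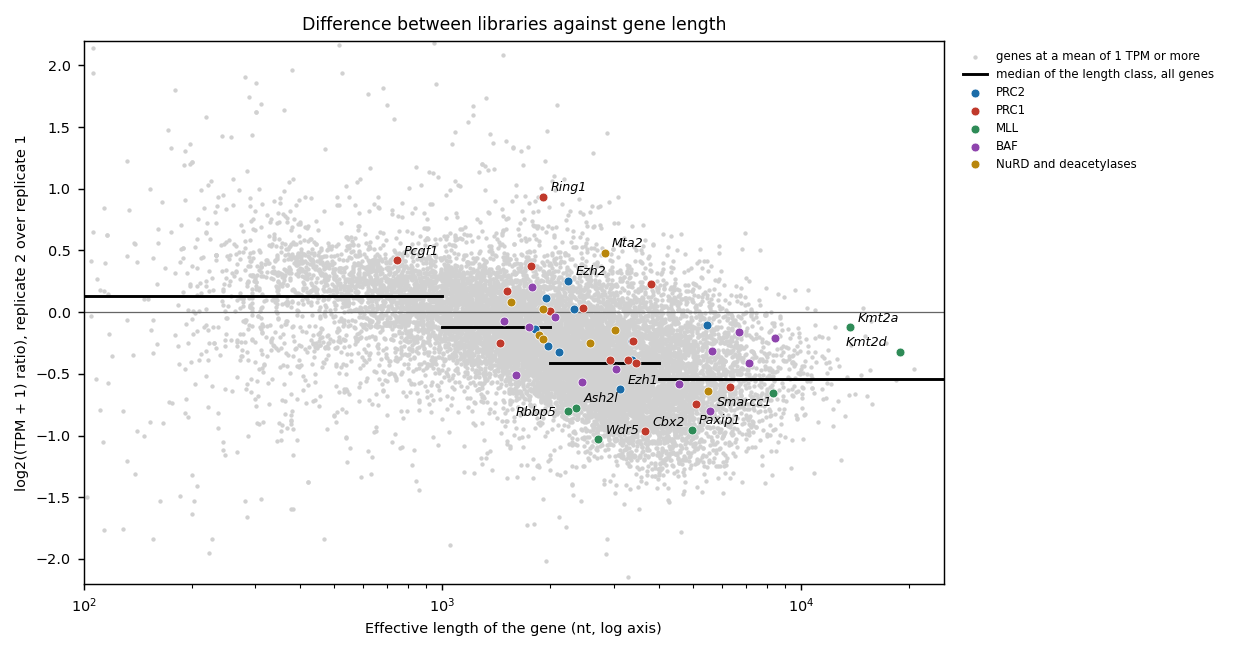
Log2 ratio of replicate 2 over replicate 1, with 1 TPM added, against effective gene length in nt on a log axis, for 53 of the 54 genes coloured by complex over all genes in grey, with black lines for the class medians. The grey cloud and the coloured points fall from left to right. Ring1 and Mta2 lie above the median lines of their length classes, and Wdr5 lies at -1.03. Beyond the axes lie 110 genes by ratio and a further 244 by length.

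The plot of the ratio against length also shows genes that stood away from the median of their length class. Mta2, at 2832 nt, was higher in replicate 2 at a log2 ratio of 0.48. Ezh2, at 2244 nt, was higher at 0.26 while Ezh1, at 3131 nt, was lower at -0.62, which is the widening of their ratio given above. Rbbp5 at 2242 nt and Ash2l at 2356 nt had nearly the length of Ezh2 and were at -0.80 and -0.78.

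Transcript tables showed which annotated products carried these levels. For 48 genes at 5 TPM or more in both libraries, the median share of a gene's TPM on transcripts annotated as protein coding was 92.4% and 92.7%, against 97.2% and 97.4% over all protein-coding genes compared. Of the 48, 24 were at 90% or more in both libraries, and 3 were below 50% in both, namely Rbbp4, Chd3 and Cbx8. The shares of all genes past these limits were not counted, so the counts mark nothing as particular to the members. Shares are estimates from reads that several transcripts have in common, made in a later-revised annotation, and a transcript's class is an annotation and not a measurement.

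**Figure D4:**
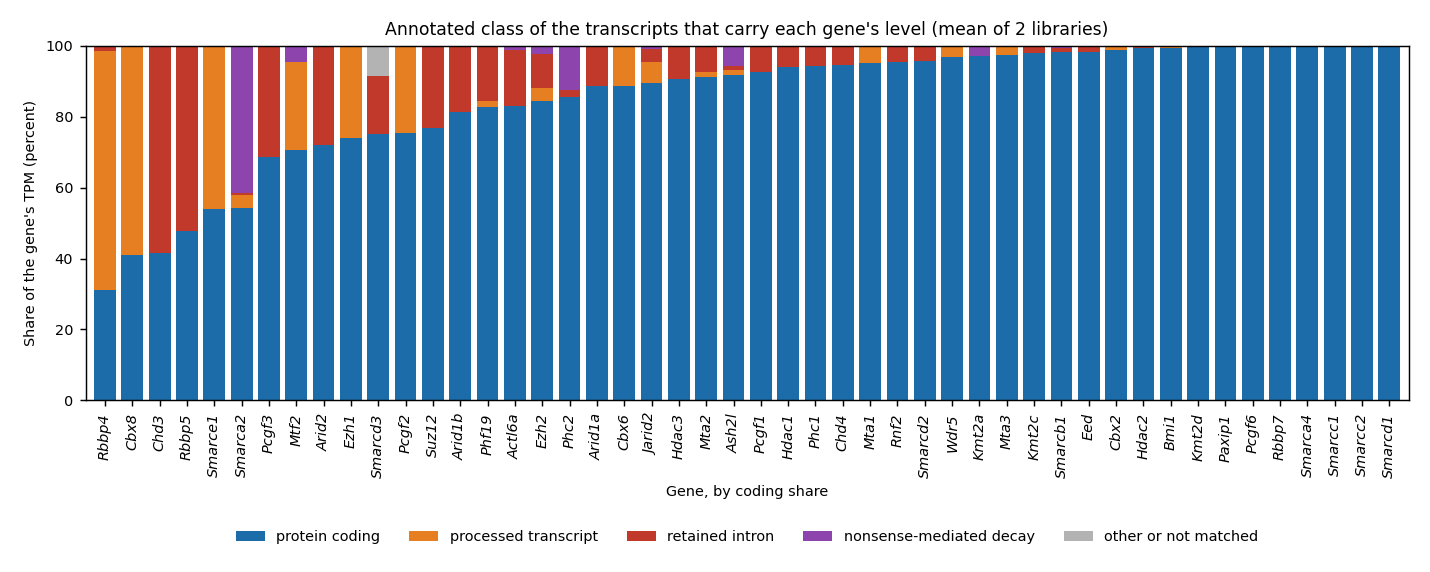
Percent of each gene's TPM, as the mean of both libraries, on transcripts annotated as protein coding, processed transcript, retained intron or nonsense-mediated decay, for 48 genes ordered by coding share. Rbbp4, Cbx8, Chd3 and Rbbp5 at the left have less than 50% on coding transcripts, and the genes at the right have nearly all of it there.

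The plot of transcript classes singles out a few genes. A transcript not annotated as coding led in both libraries for 4 of the 48, against 5.34% of 9846 protein-coding genes. For Rbbp4 it was Rbbp4-203, a processed transcript of 722 nt, with 67.3% and 67.8% of the gene's level, and coding transcripts of Rbbp4 summed to 105 and 96.0 TPM. On coding transcripts alone Rbbp7 thus held 79.7% and 78.0% of the RBBP level. For Rbbp5 it was Rbbp5-203, with a retained intron, at 45.4% and 59.0%. For Chd3 it was Chd3-205, also with a retained intron, at 25.7% and 40.7%. For Smarca2 it was Smarca2-215, annotated for nonsense-mediated decay, at 34.3% and 39.4%, and coding transcripts of Smarca2 summed to 23.0 and 19.6 TPM.

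The leading transcript differed between libraries for 5 of 44 genes with 2 or more transcripts, against 10.7% of 7404 genes. Suz12 was led by Suz12-206 at 43.8% in replicate 1 and by Suz12-201 at 39.0% in replicate 2, coding transcripts of 4303 and 4373 nt. Mtf2 was led by the 718-nt Mtf2-208 at 33.04% in replicate 1 and by the 4060-nt Mtf2-201 at 39.7% in replicate 2. Cbx6 was led by Cbx6-203 at 44.4% and then Cbx6-202 at 51.2%, and Phc1 by Phc1-202 at 35% and then Phc1-215 at 47.7%. Cbx8 was led by its coding transcript Cbx8-201 at 47.5% in replicate 1 and by the processed transcript Cbx8-202 at 43.3% in replicate 2. For Cbx8 the deposited credibility bounds of Cbx8-202, 0.023 to 2.83 TPM in replicate 1 and 1.48 to 4.93 TPM in replicate 2, overlapped, so its estimates did not separate the libraries.

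Subunits of the same complexes outside the 54 were described for comparison from a list of 49 genes. Of these, 48 reached 1 TPM in both libraries, at a median of 24.96 TPM, and none of 46 that could be called passed the 2-fold rule, with a median log2 ratio of -0.23. By complex these medians were -0.67 for PRC1, -0.65 for PR-DUB, -0.27 for BAF, -0.03 for MLL and SET1, -0.02 for PRC2 and 0.07 for NuRD, an order unlike that of the members. For PRC2, Aebp2, the usual partner of Jarid2, was at 17.7 and 19.5 TPM and Epop, a partner of the Polycomb-like form, at 5.46 and 4.75 TPM. For PRC1, Yaf2 at 89.8 and 87.3 TPM and Kdm2b, which brings the Pcgf1 complex to CpG islands, at 83.9 and 47.6 TPM were highest. Bcorl1, a corepressor, was among the lowest at 7.94 and 4.61 TPM.

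For the MLL and SET1 complexes Dpy30, the small core subunit, was at 169 and 208 TPM and the chromatin reader Psip1 at 158 and 160 TPM, while the methyltransferases Kmt2b, at 10.6 and 9.01 TPM, and Setd1b, at 12.3 and 12.0 TPM, were lowest. Dpy30 was higher in replicate 2, whereas its core partners Ash2l, Wdr5 and Rbbp5 were lower. In the deubiquitinating PR-DUB complex Bap1 was at 70.9 and 44.8 TPM, above Asxl2 at 19.2 and 10.0 TPM and Asxl1 at 16.4 and 11.6 TPM.

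For BAF, Dpf2 at 118 and 87.7 TPM and Pbrm1, of PBAF, at 88.8 and 75.2 TPM were highest, and Bicral at 3.87 and 1.91 TPM and Dpf1 at 4.04 and 3.22 TPM were lowest. Dpf1 and Ss18l1 belong to neuronal BAF, in which Ss18l1 replaces Ss18 as Actl6b replaces Actl6a. Ss18 and Ss18l1, chosen after their values were seen, stood at 88.5 and 50.2 TPM and at 5.45 and 2.59 TPM. Ss18l1 and Actl6b were each below the subunit they replace in both libraries, and of these Actl6b alone was undetected. For NuRD, Mbd3 at 196 and 202 TPM and Cdk2ap1 at 49.1 and 65.2 TPM were highest. Chd5, a neural paralog of Chd3 and Chd4, was at 0.02 and 0.03 TPM, and Gatad2b was next lowest at 16.1 and 17.0 TPM.

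Promoter windows of RefSeq on GRCm38.p6 were found for 45 of the 54 genes, 53 windows in all, and were compared with 32851 windows of the same length from all genes. The median number of CpG dinucleotides was 29 in the members' windows and 7 over all, the median ratio of observed to expected CpG was 0.882 and 0.384, and the median GC content was 66% and 52.7%. At least 10 CpG were held by 90.6% of the members' windows and 43.5% of all. The highest was Kmt2c with 56, and the lowest were windows of Mtf2 and Phc2 with 2 each. The windows of all genes include those of genes not expressed in kidney, so the contrast describes the windows and marks nothing as particular to these genes.

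Motifs were searched as exact letters on both strands, and matches to different motifs may overlap. TATAAA was in 3.77% of the members' windows and 13.6% of all, in Jarid2 and Smarcd2. CCAAT was in 30.2% and 37.4%, among them windows of Ezh2, Eed, Suz12, Rbbp4, Rbbp7 and Actl6b. The E2F-type TTTCCCGC was in 7.55% and 1.07%, in Suz12, Phf19, Arid1a and Smarcd1, and TTTGGCGC was in 1.89% and 0.514%, in Ezh2. The ETS-type CCGGAAGT was in 1.89% and 3.89%, in Mta2. The E-box CACGTG was in 13.2% and 7.15%, in Bmi1, Cbx6, Cbx8, Pcgf2, Phc2, Phc3 and Rbbp4. These matches rest on 1 to 16 windows each. The shares were not adjusted for base composition, and the members' windows had a median GC content of 66%, against 52.7% over all.

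How far reads could be shared with other genes was checked by comparing 100-nt windows of the annotated transcripts. Of the 54 genes 43 had no window in common with another gene on the same strand, and 48 had under 1%. Hdac1 had 24.9% of its windows in common, with Gm10093 and others, and Smarce1 had 10.99%, with Smarce1-ps1 and others, so the counts of these genes could be split with near-identical copies and are less certain. Bmi1 with 6.52%, Pcgf1 with 5.03% and Cbx6 with 4.15% followed. Counts were whole numbers in both libraries for 39 genes and had been divided among features for 15. On the opposite strand Smarcd3 overlapped Chpf2 over 39.4% of its windows, Phf1 overlapped Cuta and another gene over 18.7%, Rbbp4 overlapped Gm26722 and Sync over 14.5% and Actl6a overlapped Mrpl47 over 8.49%. The sources used here do not say whether strand was used in counting, so reads of these overlapping genes cannot be told apart with certainty. Between paralogs the longest shared coding run was 37 nt, in a CAG repeat of Kmt2c and Kmt2d, and the median over 49 pairs was 15 nt.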

How the data were processed

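Per the labels, total RNA-seq libraries were made from 2 biological replicates of 1 group, with mm10 as the assembly. The sources used here do not name the aligner or quantifier. The tables follow GENCODE release M4, per the text deposited with them. Per the file headers, 1 table of genes and 1 of transcripts belong to each library. In them the deposited expected counts estimate reads per feature. The deposited TPM values, also as posterior means, are scaled for length and to a fixed sum, and the deposited FPKM values for length and depth. The deposited isoform percent is a transcript's share of its gene's TPM, and the deposited bounds of TPM are a signal that describes the estimate within 1 library. Lengths are the deposited ones in nt, and length minus effective length was 99 nt.

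Symbols, classes and coordinates (1-based) come from GENCODE M21 on the same assembly, so structures can differ. Of the genes, 42462 matched and 884 did not. The members, the 49 other subunits and the markers were chosen with earlier results of these data known. Every member was named, and of the other subunits the 2 highest and 2 lowest of each complex, apart from an item that is not reported here. Leading transcripts were compared at 5 TPM or more in both libraries and named where they differed or were not annotated as coding. No test was possible within 1 group of 2, so no p-value is given. Pseudocounts of 1 TPM understate differences of low genes. Intervals are exact at 95% and, like the limit of 3 counts for a count of 0, cover counting error only. Depth was 29718428 and 29204212 expected counts. TMM factors came from edgeR 4.0.16 in R 4.3.3 on rounded expected counts. Other steps used Python 3.11.15, pandas 2.3.3, numpy 2.4.6, scipy 1.17.1 and matplotlib 3.10.9. Alternatives covered floors, pseudocounts, scalings, length and coding transcripts. The 26248 features named by a number were left out.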

Additional observations from a re-analysis of the deposited data

How the results depend on the processing

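With 1 group of 2 libraries, each result is a description. Detection of 53 of the 54 genes moved to between 48 and 53 under other floors, posterior means or FPKM, and was 53 to 53 when either library was left out. The count of genes 2-fold lower in replicate 2 was 1 on TPM with 1 TPM added (Wdr5). It was 2 with a pseudocount of 0.1 (Wdr5 and Cbx2) and 0 with a pseudocount of 5. It was 0 with FPKM, 0 with TMM and 0 with median-of-ratios scaling. The count 2-fold higher was 0 with 1 TPM added and 1 (Ring1) with a pseudocount of 0.1. It was 1, again Ring1, with each of FPKM, TMM and median-of-ratios scaling. The cause was not tested. The median log2 ratio of -0.23 turned to 0.011 with TMM, while it was 0.0074 to 0.029 above that of all genes on each of 6 scales. Hdac2 over Hdac1, at a log2 of 0.10, turned to -0.56 with counts per length of the longest coding transcript. The 34 ordered pairs numbered 34 with posterior means, 37 with that length and 37 with coding transcripts alone. Of these 34, 32 were ordered with that length (the exceptions were Phc2 over Phc1 and Mta3 over Mta1) and 34 with coding transcripts. The size of a ratio moved by more than its SD between libraries in 4 of 48 pairs with posterior means, 19 with coding transcripts alone and, besides Hdac2 over Hdac1, 26 with that length. No paired analysis was possible because there is 1 group. Depth limits the lowest genes, since Actl6b had 0 and 1 counts and Cbx7 105 and 86.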
